A study of Mus musculus with 2 samples.

Results

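The clustered protocadherins are cadherin-related adhesion proteins of neurons, encoded by 58 annotated genes in 3 tandem arrays on mouse chromosome 18. Members were taken by symbol from the GENCODE M21 annotation of mm10: every gene named Pcdha, Pcdhb, Pcdhga, Pcdhgb or Pcdhgc followed by a number, plus Pcdhac1 and Pcdhac2. This gave 14 alpha, 22 beta and 22 gamma genes, out of 55413 annotated genes, of which 21938 are protein-coding. A pair of alpha entries share the symbol Pcdha11, with starts at 37005203 and 37010712, and Pcdhgb8 is annotated as a polymorphic pseudogene. All were kept and all lie on the plus strand.

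Accessibility was measured by DNase-seq, in which the nuclease DNase I cuts open chromatin and the cuts are sequenced, in left cerebral cortex of 2 female B6CASTF1/J mice aged 36 days. Per the strain name they are hybrid offspring of B6 and CAST parents, while positions were deposited on mm10, the B6 reference. Each mouse gave 1 library, called replicate 1 and replicate 2 after the replicate numbers of the labels. The labels give the animals different numbers and the same donor entry, and nothing says whether the libraries were prepared together. Both libraries form 1 group, with no second group to compare, so values are given per library and no test was made.

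For each library the authors deposited a shorter list of peaks, in which every peak holds a position with a false discovery rate (FDR) of the cut rate under 0.001, and a longer list, in which every peak holds a position under 0.05. Replicate 1 had 69208 peaks in its shorter and 120027 in its longer list, and replicate 2 had 69128 and 120701. Peak heights are the authors' own signal values, divided by a factor per library that is not stated, so a height is read within its own list. The median height of the shorter list was 1.17 in replicate 1 and 0.909 in replicate 2. Footprints, short stretches protected from cutting inside open chromatin, and the runs of positions with an FDR under 0.05 were also deposited. No read totals accompany these values, so depth is unknown.

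In rodent and human brain, each alpha and gamma protocadherin transcript starts at its own variable exon, which encodes the extracellular and transmembrane parts and is spliced to constant exons shared by the whole array. Beta genes have a variable exon alone. Each variable exon has its own promoter, and a neuron uses a few of the alternate ones, chosen at random, so that neighbouring neurons display different sets. The C-type genes (Pcdhac1, Pcdhac2, Pcdhgc3, Pcdhgc4 and Pcdhgc5) lie at the ends of the alpha and gamma arrays and are used more regularly and in more neurons. The proteins bind copies of themselves on facing membranes, by which a neuron recognises its own branches. Distant enhancers, the zinc finger protein CTCF and the ring complex cohesin are known to govern promoter choice in the alpha array.

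The arrays span 912 kb on the plus strand. The alpha cluster runs from 36930184 to 37187661, the beta cluster from 37264938 to 37524479 and the gamma cluster from 37661793 to 37841873. A gap of 77.3 kb separates alpha from beta, and a gap of 137 kb separates beta from gamma. Neighbouring variable-exon starts were further apart than 2 kb, so windows of 1 kb on each side of a start never overlapped.

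Few variable-exon starts were open in both mice. A promoter was called open when a region with a shorter-list peak of each mouse, overlapping by at least 1 bp, came within 1 kb of the start. By this rule 4 of 58 members (6.90%) were open: Pcdhac1, Pcdhac2, Pcdhgc3 and Pcdhga12. The same call was made for 56.7% of all protein-coding genes. The open members were 2 of 14 in the alpha cluster, 0 of 22 in the beta cluster and 2 of 22 in the gamma cluster. Of the 5 C-type genes 3 were open, against 1 of the other 53 members, a division made after the values were seen.

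The longer lists come from the same libraries and admit weaker peaks, so they do not show the contrast between C-type genes and the rest independently. In them 9 members had a region shared by both mice, against 60.9% of all protein-coding genes. These were all 5 C-type genes and 4 of the other 53, namely Pcdhga11, Pcdhga12, Pcdhgb8 and Pcdhb17. Neither a longer-list peak nor a position with an FDR under 0.05 was present in either mouse at 31 members, all outside the C-type group. They were 10 of the 12 other alpha genes, 10 of the 22 beta genes and 11 of the 19 other gamma genes. Genes with neither were not counted over all protein-coding genes, of which 63.1% had a longer-list peak in replicate 1 and 62.4% in replicate 2. In a bulk tissue, an opening in few cells and a weak opening in many cells cannot be told apart.

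**Figure D1:**
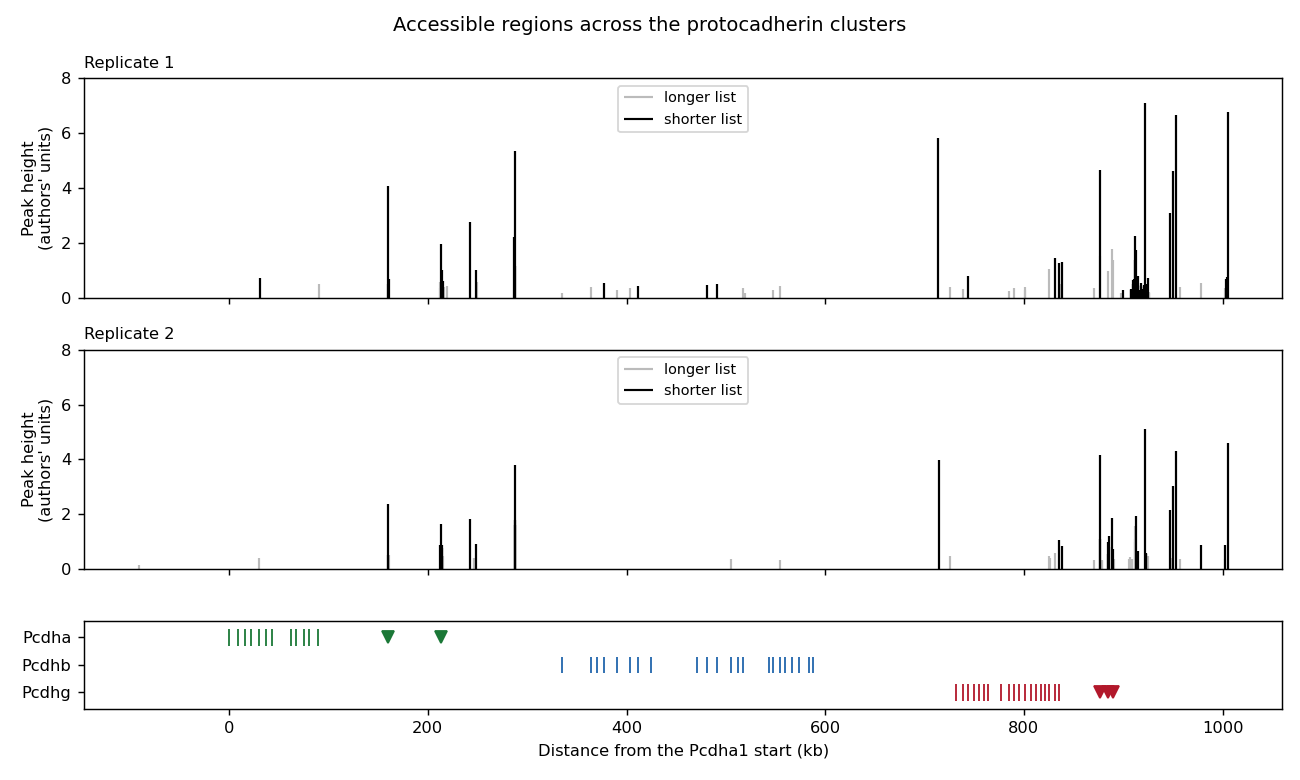
Peaks along the locus, by distance from the Pcdha1 start in kb (horizontal axis), with peak height in the authors' units (vertical axis) in replicate 1 (top) and replicate 2 (middle). Black lines are shorter-list peaks and grey lines peaks of the longer list alone, and the bottom panel marks variable-exon starts, with triangles for the 5 C-type genes. The beta array holds only low lines, up to 0.547 in replicate 1, while the tallest lines stand at Pcdhac1, at Pcdhgc3, in the gap after alpha, at Taf7 before gamma and after gamma.

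Pcdhac1 and Pcdhac2, the last variable exons of the alpha array, were open in both mice. The start of Pcdhac1 (37090013) lay under a peak with a height of 4.06 in replicate 1 and 2.38 in replicate 2. The peak ran from -152 to 47 bp relative to the start in replicate 1 and from -152 to 67 bp in replicate 2. Its lowest FDR was 1.3e-30 in replicate 1 and 5.2e-27 in replicate 2, and 6 footprints lay within 1 kb of the start in each mouse. Pcdhac1 was thus of middling height for an open promoter: 49.5% of all open protein-coding promoters were lower in replicate 1 and 39.8% in replicate 2. The start of Pcdhac2 (37143503) had a peak with a height of 1.95 in replicate 1 and 1.65 in replicate 2. This placed Pcdhac2 lower, above 20.4% of open promoters in replicate 1 and above 25.9% in replicate 2. It had the most footprints of any member, 12 in replicate 1 and 18 in replicate 2. Each of these genes also had a lower shared region inside its variable exon. At Pcdhac1 it lay at 37090501-37090883, with heights of 0.693 in replicate 1 and 0.516 in replicate 2. At Pcdhac2 it lay at 37144221-37144869, with heights of 1.02 and 0.870.

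Pcdhgc3, the most upstream C-type gene of the gamma array, had the highest promoter peak of all members. Its start (37806364) lay under a peak with a height of 4.65 in replicate 1 and 4.16 in replicate 2. Of all open protein-coding promoters, 56.9% were lower in replicate 1 and 71.1% in replicate 2. The median over these 12432 promoters was 4.10 in replicate 1 and 2.96 in replicate 2, so Pcdhgc3 stood above the median in each mouse. Its footprints numbered 6 in replicate 1 and 9 in replicate 2. Its lowest FDR was 2.7e-10 in replicate 1 and 6.1e-56 in replicate 2.

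The remaining C-type genes, Pcdhgc4 and Pcdhgc5, met the call in replicate 2 only. Pcdhgc4 (start 37815079), which in mouse is known to be needed for survival after birth, had a peak with a height of 1.00 in the longer list of replicate 1. Its peak in the shorter list of replicate 2 had a height of 1.19. That replicate 1 peak was 54 bp wide with a lowest FDR of 0.0045 and had no footprint, while the lowest FDR in replicate 2 was 2.0e-14 with 7 footprints. Pcdhgc5 (start 37819513) had a height of 1.77 in the longer list of replicate 1 and 1.87 in the shorter list of replicate 2. Its lowest FDR was 0.0092 in replicate 1 and 1.0e-24 in replicate 2, with 6 and 9 footprints. Within its own longer list the Pcdhgc4 peak stood above 65.4% of peaks in replicate 1 and 79.4% in replicate 2, and the Pcdhgc5 peak above 80.6% and 88.8%. Both peaks thus ranked lower in replicate 1, where their rates were also weaker.

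Height and rate did not run in parallel along the gamma array. In replicate 1, 23310 longer-list peaks were at least as high as that of Pcdhgc5, and only 5 of them (0.0215%) lacked a shorter-list peak. For Pcdhgc4 the numbers were 41652 and 1357 (3.26%). A peak of replicate 1 at 37829481-37829740, about 10 kb after the Pcdhgc5 start, reached an FDR of 7.7e-06 with a height of 0.274. In replicate 2 a peak just after the gamma cluster, at 37842041-37842233, had a height of 1.56 and an FDR of 0.0032 and was not in the shorter list. Its neighbour at 37844081-37844140, with a height of 0.404 and an FDR of 1.2e-15, was. The part of the rate's computation in the missing calls at Pcdhgc4 and Pcdhgc5 was not tested.

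**Figure D2:**
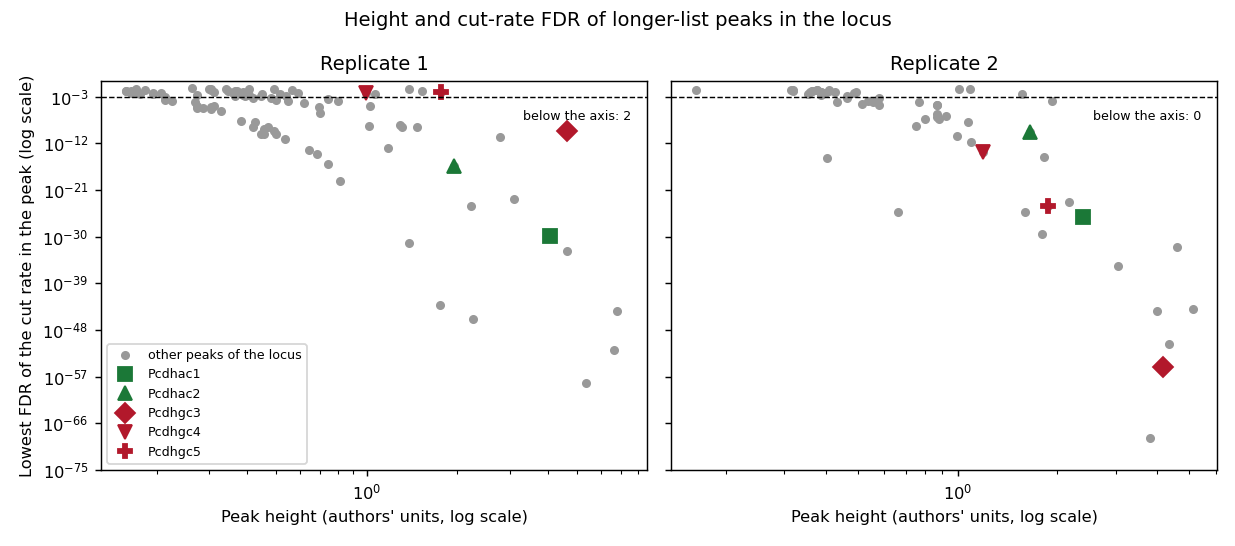
Lowest FDR of the cut rate (vertical, log scale) against height (horizontal, log scale, authors' units) for the longer-list peaks of the locus in replicate 1 (left) and replicate 2 (right), with the 5 C-type genes marked. The dashed line is an FDR of 0.001, and peaks beyond the axis are counted in each panel. Pcdhgc4 and Pcdhgc5 lie above the line in replicate 1, at heights of 1.00 and 1.77, and far below it in replicate 2.

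Among the other members, the highest peaks lay near the downstream end of the gamma variable exons, while the larger number of weak ones in replicate 1 lay in the beta array. Pcdhga12 (start 37765580), the last alternate exon of the gamma array, was the only one open in both mice, with a height of 1.29 in replicate 1 and 1.08 in replicate 2. Its peak, at 37765821-37766020 in each mouse, lay after the start and 48 bp after a further annotated start of the gene at 37765773. It held 5 footprints in replicate 1 and 3 in replicate 2. The neighbouring Pcdhgb8 had a height of 1.47 in the shorter list of replicate 1 and 0.578 in the longer list of replicate 2. Pcdhga11 had 1.06 in replicate 1 and 0.488 in replicate 2, in the longer lists alone. These 3 neighbours were the highest peaks at members outside the C-type group in replicate 1.

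Most of the low openings were found in replicate 1 alone. In the longer list, 26 members had a peak in replicate 1 (63.1% of protein-coding genes) and 11 in replicate 2 (62.4%). Of the members, 16 had one in replicate 1 only, 1 (Pcdhb12, with a height of 0.376) in replicate 2 only and 10 in each. Over all protein-coding genes 60.9% had a longer-list region shared by both mice, and genes with a peak in 1 mouse only were not counted. The shorter list had 11 members in replicate 1 and 6 in replicate 2, against 58.8% and 57.9% of protein-coding genes. Replicate 1 thus had more members called with a similar share of all genes called. The difference ran the other way for the C-type genes, with 3 of 5 in the shorter list of replicate 1 and 5 of 5 in that of replicate 2. Each mouse has 1 library, so a difference between mice and one between libraries cannot be told apart.

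The beta genes carried many weak peaks in replicate 1 and hardly any in replicate 2. Of 22 beta starts, 11 had a longer-list peak in replicate 1 and 2 in replicate 2. Heights in replicate 1 ran from 0.164 at Pcdhb1 to 0.547 at Pcdhb4, with a median of 0.407. The highest of them stood above 37.9% of the peaks of its list. Pcdhb4, Pcdhb7, Pcdhb10 and Pcdhb11 reached the shorter list of replicate 1, with heights of 0.547, 0.420, 0.480 and 0.499. None of these had a peak in replicate 2. Pcdhb17 was the only beta gene with a region shared by both longer lists, with heights of 0.444 in replicate 1 and 0.320 in replicate 2.

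The alternate alpha genes had the fewest openings, with a longer-list peak at 2 of 12 starts in replicate 1 and 1 of 12 in replicate 2. Pcdha5 had a peak with a height of 0.742 in replicate 1, which was in the shorter list, and one of 0.398 in the longer list of replicate 2. These peaks did not overlap: that of replicate 1 was centred well after the start, and that of replicate 2 spanned the start. Pcdha12 had a height of 0.493 in replicate 1 and no peak in replicate 2. Of the alternate gamma genes, 8 of 19 had a longer-list peak in replicate 1 and 3 of 19 in replicate 2. Pcdhga3 had a height of 0.803 in the shorter list of replicate 1 and no peak in replicate 2, where 25 bases had an FDR under 0.05. Pcdhga2, Pcdhga7, Pcdhgb4 and Pcdhgb5 had heights between 0.261 and 0.389 in replicate 1 alone.

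**Figure D3:**
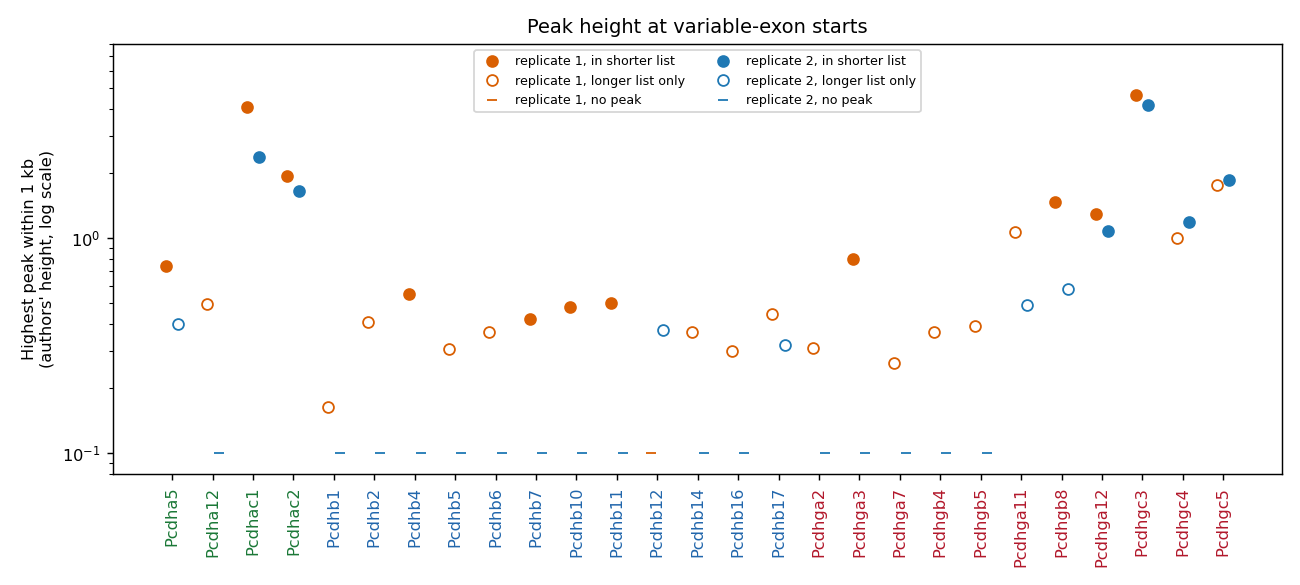
Height of the highest peak within 1 kb of the start (vertical, log scale, authors' units) for each of the 27 members with a longer-list peak in at least 1 mouse, in genomic order. Filled points are shorter-list peaks, open points peaks of the longer list alone and dashes members without a peak in that replicate. The C-type genes and the downstream gamma genes stand highest, and the beta genes lie at or below 0.547 in replicate 1.

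The weak peaks at members outside the C-type group spanned the start about as often as those of other genes. Of 21 such peaks in replicate 1, 13 (61.9%) spanned the start, 2 lay before it and 6 after it, and over all protein-coding genes with a longer-list peak the share was 63.5%. Their centres had a median of -21.5 bp relative to the start, and 15 lay between -150 and 50 bp. In replicate 2, 3 of 6 spanned the start, against 65.6% over protein-coding genes. Among the 11 beta peaks of replicate 1, 8 spanned the start, with a median centre at -24.5 bp. The alternate alpha peaks of replicate 1, at Pcdha5 and Pcdha12, spanned it in 0 of 2 cases, with centres at 448 and 540.5 bp.

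At beta and alternate gamma genes, the footprints of replicate 1 lay mostly just before the start. A footprint lay within 1 kb of the start in both mice at 9 members, against 59.8% of all protein-coding genes. In the footprints of replicate 1 alone the number was 23 (61.9% of protein-coding genes), and in those of replicate 2 it was 11 (61.2%). The members outside the C-type group had 49 footprints at 19 starts in replicate 1, with a median centre at -45 bp. Of these footprints, 31 were centred in the 150 bp before the start. By array they were 19 of 26 at beta, 12 of 20 at alternate gamma and 0 of 3 at alternate alpha genes. Footprint positions were not computed over all protein-coding genes. Footprints lie inside open chromatin, and the peaks at these starts had a median centre at -21.5 bp in replicate 1. How far footprint position follows peak position was not tested. In replicate 2 the members outside the C-type group had 13 footprints at 6 starts, with a median centre at -38 bp. Those 150 bp held 7 of them, 6 at alternate gamma genes. The C-type genes had 30 footprints in replicate 1 and 49 in replicate 2, with median centres at 108 and 107.5 bp. Pcdhac2 alone held 12 of them in replicate 1 and 18 in replicate 2, mostly after its start. At Pcdhac1, in contrast, most footprints were centred before the start in each mouse, so these medians do not describe each C-type gene. Positions with an FDR under 0.05 were present within 1 kb in both mice at 11 members, against 61.8% of protein-coding genes, and these included all 5 C-type genes. Such positions covered 3457 bases in replicate 1 and 6972 in replicate 2 around the C-type starts, and 4165 and 1676 bases around the starts of the other members. The order of the mice was thus opposite in these sums, but not gene by gene. Pcdhgc3 (650 and 1452), Pcdhgc4 (54 and 1371) and Pcdhgc5 (223 and 1545) held most of the C-type difference. Pcdhac1 (1354 and 1422) and Pcdhac2 (1176 and 1182) were nearly equal in the mice. Among the rest, the alternate alpha genes had 301 bases in replicate 1 and 381 in replicate 2. Bases were not summed over all protein-coding genes.

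**Figure D4:**
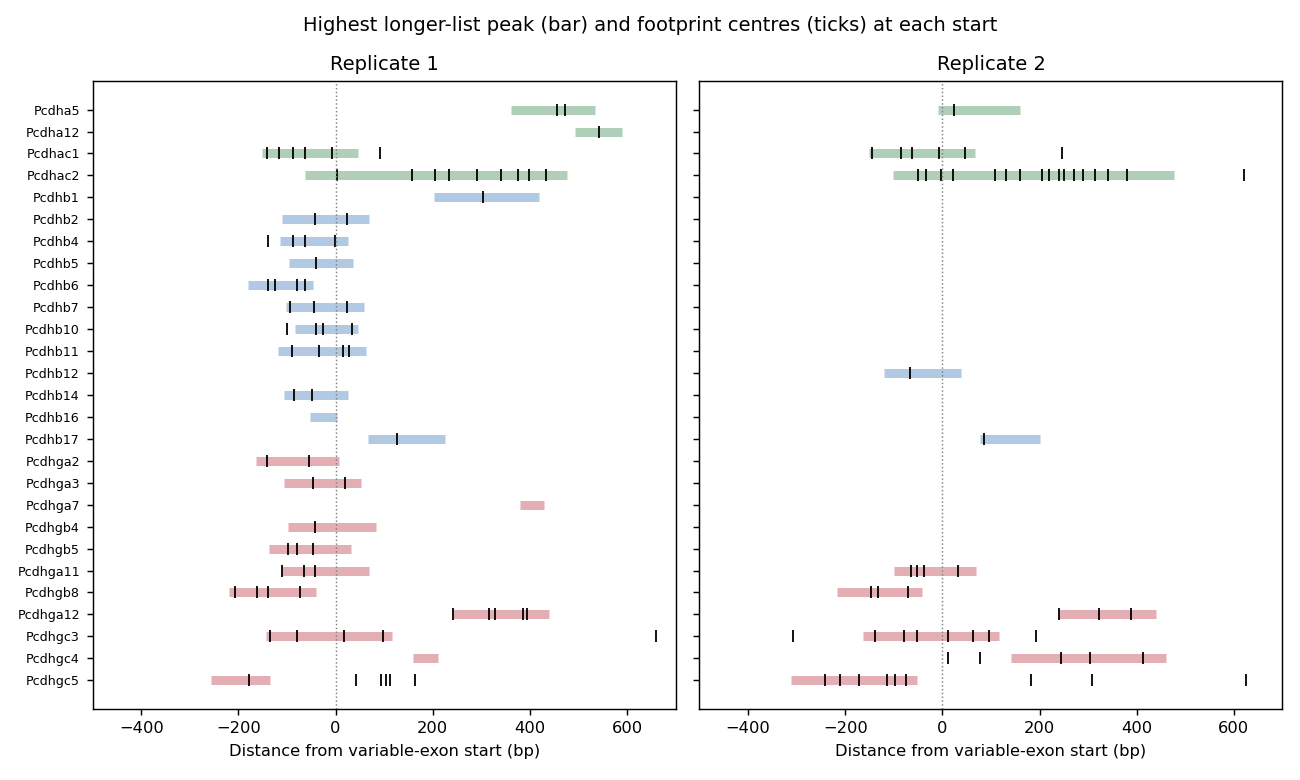
Position of the highest longer-list peak (bars) and of footprint centres (ticks) relative to the variable-exon start in bp (horizontal axis), for the 27 members with a peak in at least 1 mouse, in genomic order from top to bottom. Replicate 1 is on the left and replicate 2 on the right. Most bars of replicate 1 span the start, and 31 of the 49 footprints of members outside the C-type group are centred in the 150 bp before it.

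Most, but not all, promoters of these genes share a short element, known as the conserved sequence element, whose core is CGCT. In the 300 bases from 250 before the start to 50 after it, CGCT occurred on either strand in 56 of 58 members (96.6%), against 67.1% of all protein-coding promoters and 88.6% of the open ones. These 4 letters are common, so their position was examined. Read along the coding strand between -100 and -26 bp, a window chosen after the positions were seen, CGCT was present in 42 of the 53 members outside the C-type group (79.2%). The share over all protein-coding promoters was 21.5%. By array these were 10 of 12 alternate alpha, 17 of 22 beta and 15 of 19 alternate gamma genes, with a median offset of -61 bp. The densest 25 bases were -75 to -51, where 35.8% of these members had it, against 8.22% of all protein-coding promoters. Among the C-type genes Pcdhac1 and Pcdhgc3 had it, at -61 and -82 bp.

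Where this CGCT lay inside a longer-list peak, a footprint usually overlapped it by at least 1 bp. If a promoter had several CGCT in the window, any of them counted. Outside the C-type group this was so for 10 of 11 members in replicate 1, with Pcdhgb5 the exception, and for 2 of 2 in replicate 2. It was also so for Pcdhac1 and Pcdhgc3 in each mouse. Over all protein-coding promoters with such a CGCT inside a longer-list peak, the share was 48.2% in replicate 1 and 42.6% in replicate 2. Members with the element but no peak over it give no value here. A letter match is a description and names no bound protein.

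No member had a match to the CTCF consensus, searched on both strands with at most 1 mismatch, in these 300 bases. Over all protein-coding promoters 2.73% had one, a share so low that 0 among 58 members does not set them apart. Sites outside these 300 bases, or with more mismatches, were not searched at the starts. The members had a median of 6 CpG in the 300 bases, against 11 over all protein-coding promoters, 20 over the open ones and 3 over those not open. Set against their base composition, the ratio of observed to expected CpG had a median of 0.521 in the members. It was 0.525 over all protein-coding promoters, 0.755 over the open ones and 0.196 over those not open, so the members were poor in CpG by count and not by this ratio. The C-type genes had a median of 12 CpG and the other members a median of 6. Among the C-type genes Pcdhgc3 had 22 and Pcdhac1 17, but Pcdhgc4 had 7 and Pcdhgc5 6. The ratio had a median of 0.595 in the C-type genes and 0.521 in the other members. Pcdhgc4 (0.445) and Pcdhgc5 (0.270) were below the latter. The GC content had a median of 54.7% in the C-type genes and 39.7% in the other members, against 55% over all protein-coding promoters.

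Variable exons resemble one another, so a read from one can match several places. Within 1 kb of the start, the share of 31-base words that also occur elsewhere in mm10 had a median of 7.13% and a range of 0 to 26.8%. It was highest in the alternate alpha genes, with a median of 11.5%, and had a median of 0 in the C-type genes. Members outside the C-type group with a longer-list peak in replicate 1 had a median of 7.97%, against 8.27% for those without. In the 300 bases searched for motifs, the share of such repeated words was 0 at each of the 12 alternate alpha genes. Its median there was 0 over all members, with a maximum of 18.1% at Pcdhgb6 and Pcdhgb7. The part that read placement has in the low counts was not tested.

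Away from the variable-exon starts, 18 regions were open in both mice between 100 kb before alpha and 100 kb after gamma. There were 2 inside the alpha cluster, 3 in the gap after it, 0 in the beta cluster, 1 in the gap before gamma, 1 inside gamma and 11 after gamma. None lay in the 100 kb before alpha. The beta array, 260 kb long, thus had no region shared by the shorter lists, either at starts or between them.

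Both regions inside the alpha cluster lay between the constant exons, after an exon ending at 37159353 and before one starting at 37184946. The region at 37172281-37172500 had a height of 2.77 in replicate 1 and 1.82 in replicate 2. It overlapped an exon of Gm38097, which is annotated on the other strand, and DNase-seq does not tell strands apart. The second, at 37178312-37178875, overlapped the start of the noncoding gene Gm10544, with heights of 1.03 in replicate 1 and 0.920 in replicate 2.

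A compact group of 3 regions lay 29.5 kb after the end of the alpha cluster. The region at 37217201-37217580 had heights of 2.22 in replicate 1 and 1.60 in replicate 2. The middle one, at 37217801-37218120, had heights of 1.18 in replicate 1 and 1.80 in replicate 2. The last, at 37218201-37218480, was the highest, at 5.37 in replicate 1 and 3.80 in replicate 2, which is above each promoter peak of the alpha array. It held 4 footprints in replicate 1 and 6 in replicate 2. The outer regions each had a match to the CTCF consensus, with at most 1 mismatch, in the 300 bp around the centre. They fall in introns of 3 read-through gene models (Gm42416, Gm37013 and Gm37388) and otherwise between genes.

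The gap before gamma held 1 shared region, at the promoter of Taf7, which encodes a subunit of the general transcription factor TFIID (37644141-37644360, 5.84 in replicate 1 and 3.99 in replicate 2). Inside gamma, a region at 37768161-37768402 overlapped the start of Gm26672 within the Pcdhga12 gene, with heights of 1.31 in replicate 1 and 0.864 in replicate 2.

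Of the 11 regions after gamma, 3 lay within 3 kb of its end and the others in introns of Diaph1, the neighbouring formin gene, or at its promoter. Of the near ones, 37843822-37844380 and 37844421-37844720 fell on exons of Diaph1. Nearest to the end of gamma was 37842581-37843020, 0.708 kb after it, with heights of 1.75 in replicate 1 and 1.92 in replicate 2. The highest in replicate 1 was 37852161-37852400, 10.3 kb after the end in an intron of Diaph1, with heights of 7.10 and 5.11 in replicate 1 and replicate 2. Further on, 37877201-37877580 had 3.08 and 2.16, 37880161-37880480 had 4.63 and 3.05, and 37883561-37883740 had 6.65 and 4.33. The Diaph1 promoter at 37935401-37935740 had 6.78 and 4.60. In each mouse 3 of the regions after gamma stood above the highest promoter peak of the clusters, that of Pcdhgc3.

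Of the 18 regions, 5 (27.8%) had a CTCF consensus match with at most 1 mismatch in the 300 bp around the centre. For 1 region, at 37883561-37883740, the match was exact. Where a region is narrower than 300 bp, the match may lie outside it. Over the 300 bp around the centres of all 48886 regions shared by the mice, the shares were 19.0% and 6.63%. Replicate 1 had further low peaks around the end of the gamma cluster: within 15 kb on either side it had 27 shorter-list peaks, with heights from 0.225 to 7.10 and a median of 0.456, against 6 in replicate 2. Away from the starts, the list of replicate 1 had 10 peaks inside gamma and 24 after it, against 1 and 12 in replicate 2.

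Adhesion genes outside the clusters looked different at their starts. Of 12 non-clustered protocadherins, which stand alone in the genome, 11 were open in both mice. The highest were Pcdh10 (8.83 in replicate 1, 6.20 in replicate 2), Pcdh9 (8.19 and 5.55) and Pcdh17 (6.80 and 4.30), and the exception was Pcdh12, known from vessel walls. Of 17 cadherins of the classical and related types, 13 were open. By the mean of the mice the highest were Cdh13 (2.99 and 1.96), Cdh8 (2.77 and 1.86) and Cdh2 (2.97 and 1.62). Cdh15, Cdh18 and Cdh3 were among those that were not. The share over all protein-coding genes was 56.7%, and no test was made of these lists.

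Genes for proteins known to act on the clusters were also examined. Of 15 regulators, 12 were open at the 5′-most start, against 56.7% of all protein-coding genes. Counting any annotated start, all 15 were open, against 61.1%. The cohesin subunit Smc3 had 12.1 in replicate 1 and 6.27 in replicate 2, the cohesin release factor Wapl 8.23 and 5.74, and the histone methyltransferase Setdb1 5.72 and 4.17. Dnmt1 and Stag1 were among those not open at the 5′-most start. Ctcf itself, named after its values were seen, had 4.32 and 3.37. All 5 genes of signalling partners were open, with Pdcd10 at 8.23 and 6.05, the Src-family kinase Fyn at 5.84 and 4.44, and the focal adhesion kinase Ptk2 at 4.73 and 2.51.

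Markers of cortical excitatory neurons were mostly open and those of other organs were not. At the 5′-most start, 5 of 6 excitatory neuron markers were open in both mice, as were 1 of 4 interneuron, 2 of 4 astrocyte and 2 of 4 oligodendrocyte markers. The defining microglial markers were open in 0 of 4 cases, and the 6 genes of other organs or of posterior body regions in 0 cases. Counting any annotated start, 6 of 6 excitatory neuron, 2 of 4 interneuron, 3 of 4 astrocyte, 2 of 4 oligodendrocyte and 0 of 4 microglial markers were open, against 61.1% of protein-coding genes. Gad1 and Sst were the interneuron markers that were not.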

How the data were processed

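DNase-seq of left cerebral cortex from 2 female B6CASTF1/J mice was used, 1 library each. The authors deposited, per library, 2 peak lists whose heights are signal values, footprint positions with a constant value in the p-value column, and runs of positions with their false discovery rate (a q-value), all on mm10 per the deposited read-me text. The aligner, the peak caller and the height factor are not given in the sources. Promoters were taken from the 5′-most start in GENCODE M21, without mitochondrial genes, and sequence from GRCm38, which is mm10. A gene was called by a shared region within 1 kb. Motif and CpG counts covered 300 bases, and 31-base word counts covered 1 kb on each side of the start and the same 300 bases. Scripts used Python 3.11.15, pandas 2.3.3, numpy 2.4.6, numba 0.67.0 and matplotlib 3.10.9, and were tested on simulated peaks. Members may all be named; from the other lists, the 3 highest open genes and up to 3 without a call, alphabetically, and genes within 100 kb of the clusters. The members and lists were chosen with earlier results of these data known, and the division into C-type and other genes after the values were seen. Alternatives were longer lists, peaks above the median height, windows of 500 and 250 bp, any annotated start, 50% reciprocal overlap, an FDR of 0.001 and each library alone.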

Additional observations from a re-analysis of the deposited data

How the results depend on the processing

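Of 72 alternative values, 54 were within 1.5 times the reported count and 18 were not. No paired analysis was possible because there is 1 group. With the longer peak lists the open promoters were 9 over all members, 1 in beta, 6 in gamma, 5 C-type and 4 other, and the regions away from starts 28. Leaving out a replicate gave 6 to 11 open members, with 0 to 4 in beta and 4 in gamma either way. Of the open members, 3 to 5 were C-type and 1 to 8 other. Leaving one out also gave 11 to 23 members with footprints, 12 to 26 with cut-rate runs and 20 to 41 regions away from starts. Over all protein-coding genes the shares were 57.9% to 58.8% for open promoters, 61.2% to 61.9% for footprints and 63.4% to 63.9% for cut-rate runs. Footprints inside a shorter-list peak of both mice were present at 4 members, against 56% of protein-coding genes, and cut-rate runs under an FDR of 0.001 at 5, against 57.5%. Regions with peaks above the median height of their list numbered 11. The higher ends without a replicate came from replicate 1 alone, except for the C-type genes, where 5 came from replicate 2 alone. The count over all protein-coding genes moved by less than 1.5 times in each alternative run. With 2 libraries of unknown depth, a start without a call may have been open below what these lists record.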
